A study of Mus musculus with 1298 samples.

Results

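Dermal fibroblasts of the *Pax7* lineage at E14.5 (embryonic days are written with an E) are described here, 235 cells out of 1294 deposited single cells of that stage and 3916 of all stages. They were selected on their own measured values. Each cell received a score for each of 9 panels of 4 marker genes, the mean over the panel of log2(1 + 10000 × count / cell total), and a cell was taken when the dermal panel (*Twist2*, *Lum*, *Egfl6* and *Thy1*) scored highest and reached at least 0.7. The embryos carried *Pax7*CreER:R26R-stop-EYFP, in which tamoxifen lets Cre recombinase, expressed from the *Pax7* locus, switch on a yellow fluorescent protein (YFP) in *Pax7*-expressing cells and so in their progeny. The dam received 75 µg tamoxifen per g body weight at E9.5, and every stage used here shared this genotype and dose with no untreated group. Embryos were harvested at E12.5, E14.5 or E16.5 without head, limbs and viscera, several embryos were pooled, and YFP-positive cells were sorted onto 2 platforms, droplet-based 10× and full-length Smart-seq2. The cells are therefore those of the trunk that descend from cells expressing *Pax7* at the time of induction, and the labels name no embryo for a cell.

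The dermis of the back arises from the dermomyotome, the dorsal part of the somite, whose *Pax7*-expressing cells also give skeletal muscle and brown fat. Dermal precursors move beneath the epidermis and, under Wnt/β-catenin signals, become fibroblasts that lay down collagens and small proteoglycans and later take part in the hair follicle condensates. In this pathway a Wnt ligand binds Frizzled and Lrp receptors, β-catenin accumulates and joins Tcf/Lef proteins on DNA, and among the genes switched on are several that restrain the pathway itself, such as *Axin2*, *Nkd1*, *Notum*, *Dkk1* and *Sp5*.

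The 10× data hold 1 library per stage. In it the dermal fibroblasts of E14.5 had a median of 5556 unique molecular identifiers (UMIs, counts of single captured molecules; range 1562 to 14955) and 2007 detected genes per cell. The 41 Smart-seq2 cells had a median of 1255790 estimated counts and 7612 genes. At E16.5 the 10× dermal fibroblasts held a median of 1406.5 UMIs, so on 10× the stage, the library and the depth cannot be told apart, and the Smart-seq2 cells of the 2 stages also came from different plates and sequencing batches. A count of YFP was present in 194 of 194 members and in all 968 E14.5 cells on 10×, the authors having removed cells without YFP. Each pair of 10× libraries shared 1 cell barcode. Scrublet called 10 of the 968 E14.5 cells on 10× doublets, 5 of them members, which were kept.

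Promoter sequence of 3 genes is shown first, because *Lef1* and *Sp5* are Wnt pathway genes counted more in these cells than in the progenitors beside them, and *Crabp1* is the gene outside the panel with the largest ratio to all other cells. The windows are the 250 bases before a RefSeq transcript start on GRCm38.p6, plus strand, 5′ to 3′. Capitals mark each match to CTTTGA, the core letters that Tcf/Lef proteins are known to bind, or to its reverse complement TCAAAG on the other strand. These 2 strings cannot overlap each other.
*Lef1*, chr3:131156044-131156293: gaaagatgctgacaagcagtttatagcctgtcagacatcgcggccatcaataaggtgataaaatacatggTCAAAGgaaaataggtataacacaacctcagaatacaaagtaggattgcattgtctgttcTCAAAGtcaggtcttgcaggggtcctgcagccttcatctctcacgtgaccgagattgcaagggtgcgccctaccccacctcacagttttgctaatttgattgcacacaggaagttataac
*Sp5*, chr2:70474673-70474922: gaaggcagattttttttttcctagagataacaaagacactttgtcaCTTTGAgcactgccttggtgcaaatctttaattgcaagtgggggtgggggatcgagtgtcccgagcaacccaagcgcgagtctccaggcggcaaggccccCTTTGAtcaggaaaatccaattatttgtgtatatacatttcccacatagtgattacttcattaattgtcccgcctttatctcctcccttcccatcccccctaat
*Crabp1*, chr9:54764498-54764747: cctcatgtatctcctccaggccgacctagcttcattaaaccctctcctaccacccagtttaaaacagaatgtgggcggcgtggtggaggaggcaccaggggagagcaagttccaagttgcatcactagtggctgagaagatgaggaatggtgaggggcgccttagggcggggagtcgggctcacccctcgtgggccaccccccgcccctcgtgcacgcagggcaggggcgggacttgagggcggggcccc

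The *Lef1* window lies before an internal start of the gene, 45573 bases past the gene start of GENCODE vM21 and over no annotated exon, and its matches begin 180 and 120 bases before the transcript start. The 3 other RefSeq windows of *Lef1*, nearer its annotated start, held no match. The *Sp5* window ends just before the gene's first base and holds matches 204 and 104 bases before it. The *Crabp1* window, which also ends just before the gene, held 0. For comparison, 4544 of 32851 mouse promoter windows of this length (13.8%) held at least 1 match and 1.37% at least 2. Among the Wnt feedback genes described later, 4 of 22 windows (18.2%) of the 16 genes with an entry held it, those of *Dkk1*, *Frzb*, *Lef1* and *Sp5*, and among the leading genes 2 of 27 windows (7.41%). A match is a string of letters and not a binding site.

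The 4 panel genes, which chose the cells, were present as follows, given in CPM, the summed counts of the members scaled to a total of 1000000. *Twist2*, a basic helix-loop-helix transcription factor needed for a full dermis, stood at 596 CPM on 10× and 562 on Smart-seq2, beside 20.5 and 8.89 in all other E14.5 cells. *Lum*, which encodes the collagen-binding proteoglycan lumican, stood at 1693 and 2660 CPM beside 171 and 214. *Egfl6*, a secreted matrix protein, was at 333 and 1261 CPM beside 86.3 and 162, and *Thy1*, the surface glycoprotein CD90, at 335 and 75.4 CPM beside 10.5 and 3.38. On 10×, 88 of 194 members had all 4 genes counted, and on Smart-seq2 38 of 41. *Twist2* was counted in 84% of the 10× members (median 5556 UMIs) and in 4.58% of cells of the muscle progenitor panel (median 8081 UMIs). The rule itself favoured a low share there, because in those cells the muscle progenitor panel outscored the dermal panel.

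The panel score of the members ran from 0.728 over a median of 2.43 to 3.72 on 10× and from 1.86 over 2.84 to 3.55 on Smart-seq2. The nearest cell with the dermal panel highest but under 0.7 scored 0.616 on 10×, and there was no such cell on Smart-seq2. A further 173 cells on 10× and 47 on Smart-seq2 reached 0.7 in the dermal panel with another panel higher. In 164 and 47 of these the higher panel was that of late progenitors (*Ogn*, *Aspn*, *Postn* and *Igf1*), so the boundary of the group lies mostly against those cells. Among members the second highest panel was the early progenitor panel in 126 cells on 10× and 25 on Smart-seq2, and the late progenitor panel in 52 and 15. In 18 cells on 10× the lead over the second panel was under 0.25, and in 0 on Smart-seq2.

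Dermal fibroblasts made up 20% of the E14.5 cells on 10× (194 of 968, exact 95% interval 17.6 to 22.7, which like all such intervals here covers counting error only) and 12.6% on Smart-seq2 (41 of 326, 9.18 to 16.7). The 4 Smart-seq2 plates of E14.5 held 14.1% (13 of 92 cells), 27% (24 of 89), 4.65% (4 of 86) and 0 of 59, the last allowing a share of up to 5.08% (3 cells). The first pair of plates was sequencing batch 3, with 20.4% dermal fibroblasts (14.8 to 27.1), and the other pair batch 4, with 2.76% (interval 0.757 to 6.91). The intervals of the plates with 13 and 4 members, 7.74 to 23 and 1.28 to 11.5, overlapped. The neuron panel moved with this, leading in 28.2% of batch 3 cells and 49.7% of batch 4 cells, and the median depth was 1148590 against 592752 counts. Their part in the difference was not tested. By the same rule the share was 0.983% on 10× and 2.55% on Smart-seq2 at E12.5, and 29.3% and 18.1% at E16.5, where 1 UMI of the panel in a 10× cell of median depth already gives a score of 0.755, against 0.371 at E14.5.

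**Figure D1:**
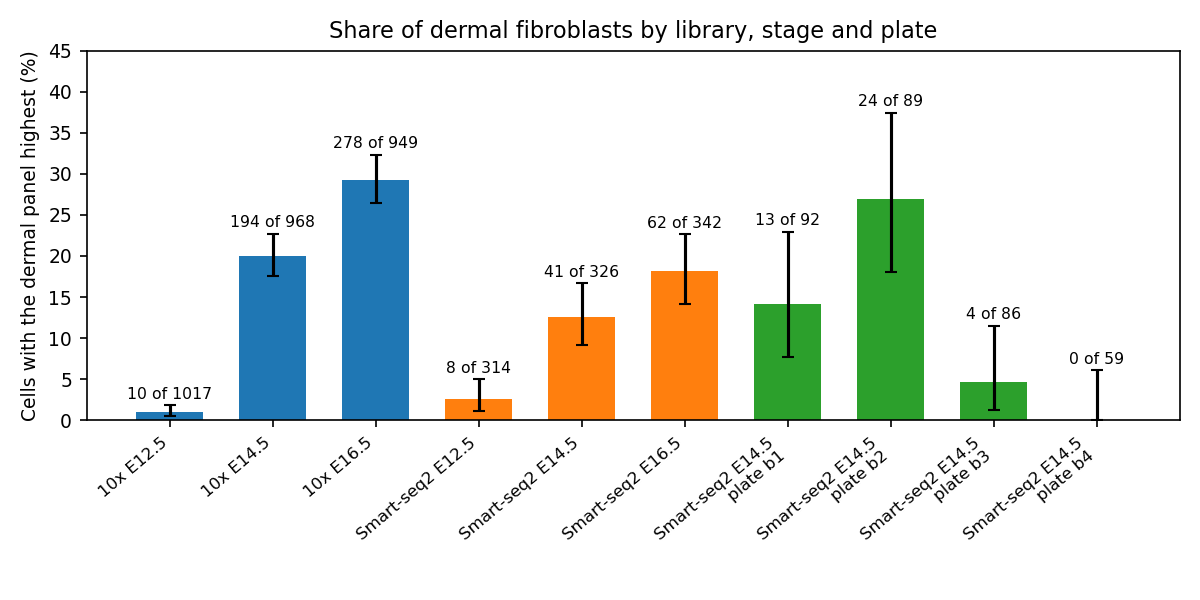
Share of cells (%) in which the dermal panel scored highest and reached 0.7, for each platform and stage and, in green, for each E14.5 Smart-seq2 plate; bars are shares, whiskers exact 95% binomial intervals of counting error, and the numbers give cells. At E14.5 the 10× library sits at 20% and the 4 plates between 0 and 27%.

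Outside the panel, 27 genes had at least 50 CPM in the members and a log2 ratio, with 10 CPM added to both sides, of at least 2 to all other E14.5 cells on both platforms. Because the panel defined the 2 sides, these values describe the cells and were not tested. *Crabp1*, which binds retinoic acid in the cytoplasm, led with 3627 CPM on 10× (exact Poisson 95% interval 3517 to 3739) and 2775 on Smart-seq2, beside 135 and 130 in the other cells. It was counted in 41 of 41 members on Smart-seq2, at 87.5 CPM in the lowest cell, 2759 in the median cell and 5799 in the highest. On 10× it was counted in 82% of members, with a median cell at 3874 CPM the lowest at 0 and the highest at 10701, in 40.8% of late progenitor cells and in 13.1% of muscle progenitor cells. The 4 members of batch 4 stood at 2683 CPM, close to the 2778 of batch 3.

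Several leading genes act at the cell surface or outside the cell. *Pth1r*, the receptor for parathyroid hormone and its related peptide, stood at 214 CPM on 10× and 261 on Smart-seq2, beside 15 and 7.02 in the other cells, with 46.1 in the 4 cells of batch 4. The chemokine gene *Cxcl14* stood at 346 and 314 CPM beside 32.5 and 11.4. *Nt5e*, which encodes the ectonucleotidase CD73, stood at 62.1 and 449 CPM beside 1.69 and 15.8. Each of these was higher than in the other cells on both platforms, which the rule for leading genes required.

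Among genes acting inside the cell, *Arhgdib*, an inhibitor of small GTPases best known from blood cells, stood at 247 CPM on 10× and 288 on Smart-seq2, beside 18.1 and 8.03. It was counted in 41 of 41 Smart-seq2 members. *Crip1*, a small LIM-domain protein, stood at 1528 and 352 CPM beside 205 and 15.3. *Ass1*, an enzyme of arginine synthesis, was at 66.4 and 144 CPM beside 3.16 and 3.69, and *Emp2*, a membrane protein of the tetraspan family, at 95.3 and 236 CPM beside 4.43 and 8.58. The remaining leading genes included the proteoglycan gene *Dcn*, the adhesion genes *Vcam1* and *Cdh11*, the enkephalin precursor *Penk* and the lymphangiogenic factor *Vegfd*. Over all 15147 genes listed on both platforms, 224 exceeded a log2 ratio of 1 on both and 224 lay under -1, which is 1.48% each.

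**Figure D2:**
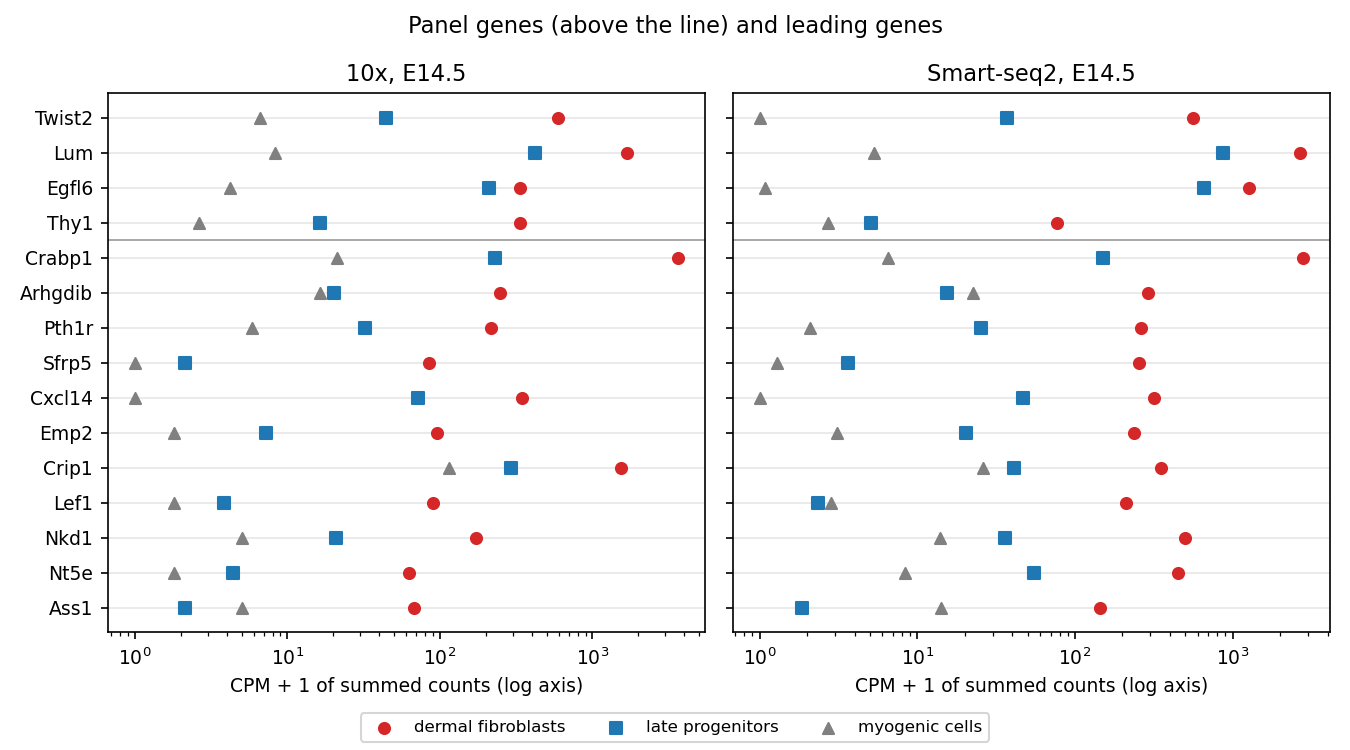
CPM of summed counts, with 1 added and on a log axis, at E14.5 on 10× (left) and Smart-seq2 (right) for the panel genes, above the line, and 11 leading genes, below it; circles show dermal fibroblasts, squares late progenitor cells and triangles cells of the muscle progenitor panel (myogenic cells). *Crabp1* stands at 3627 and 2775 CPM in the dermal fibroblasts, above both other groups.

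The late progenitor cells (314 on 10× and 59 on Smart-seq2) were taken for comparison because most cells at the boundary of the rule belonged to them. The genes that differed most from them on both platforms were, besides *Crabp1*, *Arhgdib*, *Lef1*, *Sfrp5* and *Ass1*, the genes *Bcl11b*, *Lix1* and *Stmn2*. *Bcl11b*, a zinc-finger transcription factor of skin and T cells, stood at 155 CPM on 10× and 160 on Smart-seq2, beside 4.52 and 1.24 in late progenitor cells. It was counted in 46.4% of 10× members, 2.23% of late progenitor cells and 16.3% of muscle progenitor cells. *Lix1* stood at 139 and 368 CPM beside 3.95 and 4.29. *Stmn2*, a regulator of microtubules otherwise typical of neurons, stood at 197 and 204 CPM beside 16.4 and 3.18, and was counted in 58 of 194 and 22 of 41 members. The 10 neuron markers summed to 35.8 and 18.7 CPM in the members beside 186 and 1116 in all other cells, which include the cells that the neuron panel led.

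In the other direction, the 6 genes ranked first as higher in late progenitor cells were *C1qtnf3*, *Tnmd*, *Chodl*, *Ebf2*, *Fibin* and *Thbs4*. *C1qtnf3*, a secreted relative of complement C1q, stood at 16.6 CPM on 10× and 6.35 on Smart-seq2 in dermal fibroblasts beside 295 and 1098 in late progenitor cells. The tendon gene *Tnmd* stood at 6.12 and 3.81 CPM beside 112 and 160. *Ebf2*, a transcription factor of brown fat precursors, stood at 20.1 and 3.66 CPM beside 146 and 405. *Thbs4*, a matrix glycoprotein of tendon and muscle, stood at 14 and 19.8 CPM beside 92 and 667, *Fibin* at 48.1 and 46.6 beside 263 and 743, and *Chodl* at 0.874 and 0.727 beside 56.5 and 84.4. The 0.874 CPM of *Chodl* on 10× is under the 2.62 CPM that 3 counts give in this sum. Over all 15147 genes, 140 (0.924%) exceeded a log2 ratio of 1 to late progenitor cells on both platforms and 125 (0.825%) lay under -1.

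Several Wnt feedback genes were higher than in late progenitor cells. Of 25 genes for pathway feedback and targets, 9 (36%) exceeded a log2 ratio of 1 to the late progenitor cells on both platforms and 3 (12%) lay under -1. Of the 2465 genes with at least 50 CPM on both platforms, in dermal fibroblasts or in all other E14.5 cells, the shares were 2.35% and 1.78%. These shares also stand beside the list counts below. The median log2 ratio of the 25 genes was 0.12 on 10× and 1.16 on Smart-seq2, beside medians of 0 over all genes. *Lef1*, the DNA-binding partner of β-catenin whose promoter is shown above, stood at 89.2 CPM on 10× (interval 72.7 to 108) and 210 on Smart-seq2, beside 2.82 and 1.33 in late progenitor cells. It was counted in 62 of 194 members on 10× and 38 of 41 on Smart-seq2, against 1.59% of late progenitor and 0.654% of muscle progenitor cells on 10×. With each cell thinned to 1000 UMIs the share was 12.4% in members, 0 of 314 in late progenitor cells and 0.654% in muscle progenitor cells.

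Among the feedback genes over that ratio were several inhibitors of the pathway. *Nkd1*, which binds Dishevelled, stood at 170 CPM on 10× and 496 on Smart-seq2 beside 19.8 and 35.2 in late progenitor cells, and was counted in 51.5% of 10× members, 9.55% of late progenitor and 3.27% of muscle progenitor cells. *Wif1*, a secreted trap for Wnt ligands, stood at 51.6 and 363 CPM beside 3.95 and 16.8. *Sfrp5*, a secreted Frizzled-related protein, stood at 83.9 and 253 CPM beside 1.13 and 2.63, with 44.4 in the 4 cells of batch 4. It was not a gene of every member, being counted in 46 of 194 and 27 of 41.

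Other feedback genes were counted in fewer members. *Dkk1*, a secreted antagonist of the Lrp coreceptors, stood at 30.6 and 35 CPM beside 0.565 and 0.791, in 21 of 194 and 20 of 41 members. *Notum*, a secreted enzyme that strips the lipid from Wnt ligands, stood at 24.5 and 35 CPM, in 19 of 194 and 17 of 41 members, against 1 of 314 and 0 of 59 late progenitor cells. *Sp5*, a transcription factor induced by Wnt, stood at 9.62 CPM on 10× and 41.9 on Smart-seq2 and at 0 in late progenitor cells on both. It was counted in 10 of 194 and 22 of 41 members, and the 0 of 59 late progenitor cells on Smart-seq2 allows a share of up to 5.08%. *Axin2*, a scaffold of β-catenin degradation, stood at 10.5 and 51.2 CPM beside 3.95 and 4.24, a log2 ratio of 0.55 on 10× and 2.10 on Smart-seq2. *Apcdd1*, an inhibitor at the membrane, differed between the platforms, at 0.874 CPM on 10×, under the 2.62 CPM that 3 counts give, and 242 on Smart-seq2 beside 0.565 and 8.03.

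The antagonists *Sfrp1*, *Sfrp2* and *Dkk2* were lower than in late progenitor cells. *Sfrp2* stood at 199 CPM on 10× and 143 on Smart-seq2 beside 533 and 1049.6, *Sfrp1* at 60.3 and 43.2 beside 182 and 206, and *Dkk2* at 21.9 and 0.377 beside 74 and 155. Of 34 ligands, receptors and R-spondins, 3 (*Wnt6*, *Ror2* and *Rspo1*) exceeded a log2 ratio of 1 to late progenitor cells on both platforms and 1, *Lgr4*, lay under -1. *Wnt6* stood at 32.3 and 30.4 CPM beside 2.82 and 0.313, and *Rspo1*, a secreted enhancer of Wnt signalling, at 95.3 and 48.2 CPM beside 8.47 and 8.11. *Wnt4* stood at 110 CPM on 10× beside 11.3 but at 13.8 on Smart-seq2 beside 2.68. *Wnt5a*, a ligand that mostly acts without β-catenin, stood at 68.2 and 292 CPM beside 44 and 121, and its receptor gene *Ror2* at 41.1 and 252 CPM beside 15.2 and 114.

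**Figure D3:**
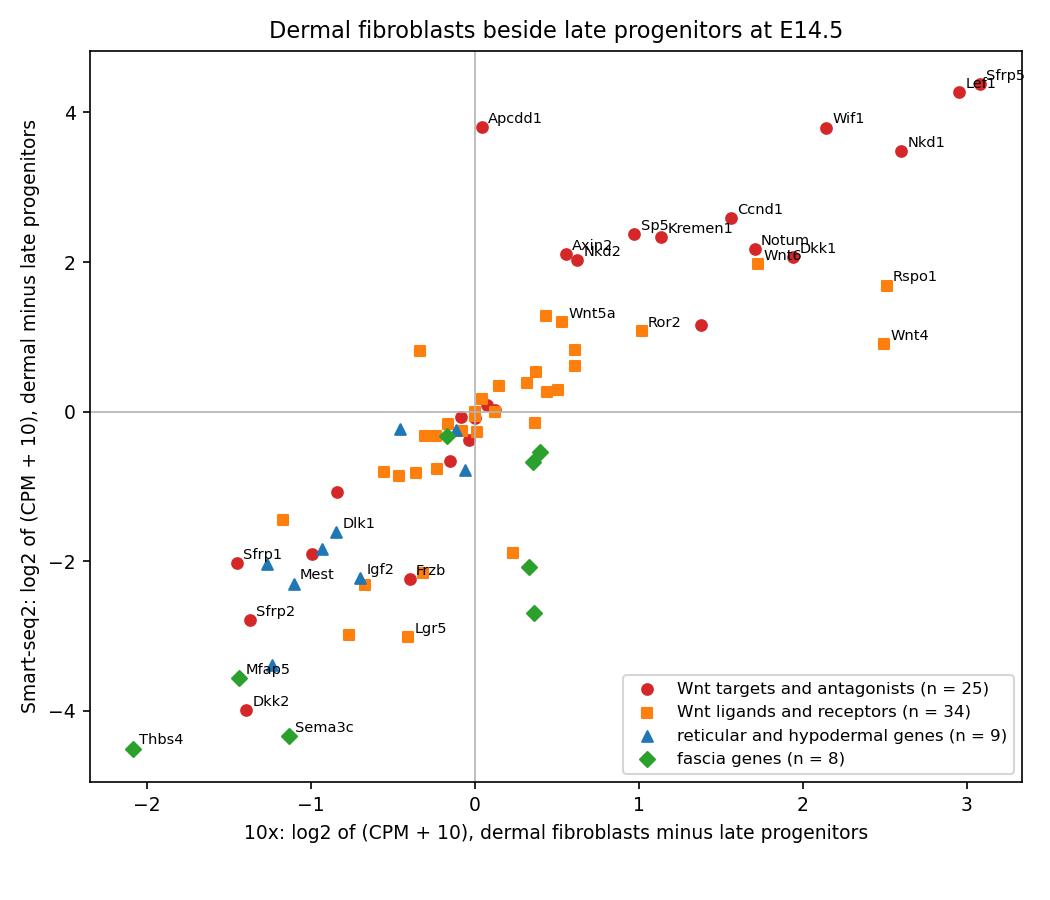
Log2 of (CPM + 10) in dermal fibroblasts minus late progenitor cells at E14.5, 10× on the x axis and Smart-seq2 on the y axis, 1 point per gene of the lists shown. *Lef1*, *Nkd1* and *Sfrp5* lie high on both axes, at 2.95 and 4.28, 2.60 and 3.48, and 3.08 and 4.38, and *Sfrp1*, *Sfrp2* and *Dkk2* lie under -1 on both.

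Fewer matrix genes differed from late progenitor cells than from all other cells. Of 51 matrix genes, 12 (23.5%) exceeded a log2 ratio of 1 to all other cells on both platforms, beside 5.03% of the 2465 genes with at least 50 CPM. Against late progenitor cells 3 (5.88%) did so, beside 2.35% of those genes, and 4 lay under -1. The median log2 ratio to late progenitor cells was -0.26 on 10× and -0.51 on Smart-seq2. *Col1a1*, a chain of the main fibrillar collagen, stood at 2342 CPM on 10× and 14787 on Smart-seq2 beside 2862 and 16378 in late progenitor cells. *Col7a1*, the collagen of the anchoring fibrils under the epidermis, was one of the 3, with 35 and 283 CPM beside 0.565 and 1.27, counted in 32 of 194 and 37 of 41 members. Among those lower than in late progenitor cells were the elastic-fibre genes *Mfap5*, with 38.5 and 0.571 CPM beside 121 and 115, and *Mfap4*, with 239 and 72.7 beside 694 and 705.

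In the retinoid list of 17 genes, *Crabp1* and *Cyp26b1* were over a log2 ratio of 1 to late progenitor cells on both platforms, and *Crabp2* and *Aldh1a3* were among those under -1. *Cyp26b1*, which degrades retinoic acid, stood at 53.3 CPM on 10× and 38.9 on Smart-seq2 beside 6.21 and 0.814, in 33 of 194 and 13 of 41 members. *Crabp2*, a second cytoplasmic binding protein for retinoic acid, stood at 123.3 and 73.8 CPM beside 353 and 172, and *Aldh1a3*, which makes retinoic acid, at 13.1 and 3.59 beside 40.1 and 131. Of 11 hedgehog genes, none passed that ratio to late progenitor cells on both platforms. *Ptch1*, the receptor and a target of the pathway, stood at 35 and 121 CPM beside 14.7 and 16.

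Genes often used to follow dermal cells varied. *Pdgfra*, a growth factor receptor of many fibroblasts, stood at 105 CPM on 10× and 693 on Smart-seq2 beside 62.7 and 484 in late progenitor cells. *Mef2c*, a MADS-box transcription factor better known from muscle, stood at 108 and 108 CPM beside 23.7 and 10.0. *Cd34*, a surface protein of some mature skin fibroblasts, stood at 44.6 and 184 CPM beside 55.3 and 294, and *Pparg*, the main transcription factor of fat cells, at 2.62 and 12.4 beside 18.1 and 57.6.

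Some genes of the deeper skin layers were lower. Of 9 genes of the reticular and hypodermal lineage, 0 were over a log2 ratio of 1 to late progenitor cells on both platforms and 3 (*Mest*, *Mgp* and *Meox2*) under -1. The imprinted gene *Mest* stood at 1141 CPM on 10× and 1311 on Smart-seq2 beside 2468 and 6504, and *Dlk1*, also imprinted and a marker of the lower dermis, at 3351 and 594 CPM beside 6039 and 1832. Of 8 fascia genes, 3 lay under -1, and of 8 papillary dermis genes 1, *Dkk2*. Of 18 genes of the dermal condensate, the cell cluster that starts a hair follicle, *Tbx18* and *Dkk1* were over 1. *Sox2* was counted in 0 of 235 members, but it belongs to another of the 9 panels, which the dermal panel had to outscore. The rule itself therefore disfavoured cells with *Sox2*. *Sox18* was counted in 1 of 194 and 0 of 41 members, the latter allowing a share of up to 7.32%.

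More members than late progenitor cells held counts of several G2/M genes. On 10×, 69 of 194 members (35.6%, 28.8 to 42.7) had counts in at least 3 of 24 G2/M genes, against 66 of 314 late progenitor cells (21%, 16.6 to 25.9), at median depths of 5556 and 5416 UMIs, and 75.2% of muscle progenitor cells. On Smart-seq2 it was 40 of 41 members against 49 of 59 late progenitor cells. At least 3 of 20 S-phase genes were counted in 115 of 194 members (59.3%) and 178 of 314 late progenitor cells (56.7%) on 10×, and in every cell of both groups on Smart-seq2. The summed level of the G2/M list was 1436 CPM beside 703 in late progenitor cells on 10× and 3458 beside 1083 on Smart-seq2, but 141 CPM in the 4 members of batch 4. Of 6 inhibitors of cyclin-dependent kinases, 1 was over a log2 ratio of 1 to late progenitor cells on both platforms and 0 under -1, with medians of 0.13 on 10× and 0.71 on Smart-seq2, and the abundant *Cdkn1c* stood at 1852 and 188 CPM beside 3589 and 904.

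Marker lists of other cell types were summed over the members. The dermal panel had to outscore panels of muscle, neuron, fat cell and pericyte genes. The rule itself therefore disfavoured cells with markers of those types. The 11 muscle markers summed to 88.3 CPM on 10× and 7.02 on Smart-seq2, beside 1698 and 3097 in all other cells, with 2 and 3 of them at 0. The 5 immune markers summed to 6.12 and 6.20 CPM, with 3 and 2 at 0, and the 7 endothelial markers to 7.87 and 99.9 CPM, with 3 and 2 at 0. Of the 5 erythroid markers, 1 was at 0 on each platform, and they summed to 119 CPM on 10× and 4.41 on Smart-seq2 beside 125 and 25.2 in the other cells. The 5 tendon markers summed to 15.7 and 25.4 CPM beside 183 and 351 in late progenitor cells, and the 8 adipocyte markers to 47.2 and 44.8 beside 152 and 288. Cartilage markers were concentrated in few cells. Their 6 genes summed to 348 CPM on 10× beside 166 in the other cells, 4 of 194 members had at least 3 of the 7 such genes in the 10× table, and the highest member held 61652 CPM. On Smart-seq2 they summed to 40.8 CPM beside 234.

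The difference between E16.5 and E14.5 within dermal fibroblasts was not used by the rule, except for the panel genes, and was tested on 4 sums of counts, 1 for each platform and stage. Nothing in the labels ties a sum to separate animals, so p-values measure only how far the platforms differed in the stage difference. By edgeR's quasi-likelihood test, with p-values adjusted after Benjamini and Hochberg, 93 of 12898 genes (0.721%) passed an adjusted p of 0.05, 31 higher at E16.5 (0.24%) and 62 lower (0.481%), with 787 at an unadjusted p under 0.05. Most were low, 80 of the 93 having a mean under 50 CPM. Of the 3484 genes with a mean of at least 50 CPM, 48% moved the same way on both platforms. In a fit with all classes sharing the estimate of spread, 70 genes were called, 105 without the 10× sum of E14.5, 95 without that of E16.5, 17 without the Smart-seq2 sum of E14.5 and 0 without that of E16.5 (419 at an unadjusted p under 0.05). In the fit on dermal fibroblasts alone, 0 were called when the Smart-seq2 cells of E14.5 were split by sequencing batch (200 at an unadjusted p under 0.05). DESeq2 called 55.

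Of 50 matrix genes tested, 0 were called higher at E16.5 and 1, *Col11a1*, lower, beside 0.721% of all genes called. DESeq2 called 1. An unadjusted p under 0.05 was reached by 12 of the 50, beside 787 of 12898 genes. The median log2 difference of the list in the fit was 0.40 beside -0.04 over all genes tested. By platform, with 10 CPM added, it was 0.37 on 10× but -0.07 on Smart-seq2, beside -0.12 and -0.15 over all genes tested. On both platforms 16 genes of the list were up and 11 down. The summed level of the list went from 17450 to 34617 CPM on 10× and from 75068 to 96415 on Smart-seq2. *Itih5*, which binds hyaluronan, rose from 21.9 to 199 CPM on 10× and from 63.8 to 812 on Smart-seq2 (log2 difference 3.71 ± 0.59 SE, adjusted p = 4.15e-07). *Cav1*, the coat protein of caveolae, rose from 42 to 244 and from 330 to 1558 CPM (2.64 ± 0.55, adjusted p = 8.36e-04). *Trps1*, a GATA-type transcription factor of hair follicles, rose from 14 to 93.2 and from 54.7 to 212 CPM (2.55 ± 0.56, adjusted p = 0.00163). The chemokine gene *Cxcl1* rose from 35 to 201 and from 17.8 to 102 CPM (2.78 ± 0.55, adjusted p = 2.16e-04).

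For 4 other genes that rose, the platforms differed in size. *Mt1* and *Mt2*, metallothioneins that bind zinc and copper, rose from 195 to 1201 and from 59.5 to 551 CPM on 10×, and from 16.6 to 45.5 and from 4.64 to 9.25 on Smart-seq2 (*Mt1* 2.29 ± 0.54, adjusted p = 0.00713). *Prss23*, a secreted serine protease, stood at 24.5 and 30.2 CPM on 10× at the 2 stages and rose from 1.75 to 171 on Smart-seq2 (4.13 ± 0.80, adjusted p = 1.73e-04). *Rgcc*, a regulator of the cell cycle, stood at 97.9 and 113 CPM on 10× and rose from 1.82 to 52.2 on Smart-seq2 (2.85 ± 0.67, adjusted p = 0.00571). So *Prss23* and *Rgcc* rested on Smart-seq2. Over 14 alternative fits *Itih5* passed in 11. The other genes chosen from the stage test by rule, including *Ptn*, *Tex15* and *Scube2* below, passed in 6 to 8.

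Among called genes with a mean of at least 50 CPM and the same sign on both platforms, 3 fell. *Ptn* encodes the heparin-binding growth factor pleiotrophin and went from 961 to 149 CPM on 10× and from 120 to 16.2 on Smart-seq2 (-2.54 ± 0.55, adjusted p = 0.00130). *Tex15*, a gene best known from the testis, went from 32.3 to 7.55 and from 325 to 44.4 CPM (-2.38 ± 0.62, adjusted p = 0.0222). *Scube2*, a secreted protein that helps release hedgehog ligands, went from 28 to 7.55 and from 222 to 30.9 CPM (-2.31 ± 0.63, adjusted p = 0.0364). The 7.55 CPM of both is 3 counts, the floor of the 10× sum at E16.5. Among list genes, *Notum* fell from 24.5 and 35 CPM to 0 on both platforms, where 0 of 278 and 0 of 62 cells allow shares of up to 1.08% and 4.84% (adjusted p = 1.87e-10), and *Sfrp1* from 60.3 to 2.52 and from 43.2 to 7.40 CPM (adjusted p = 0.0100). *Sox18*, a factor of the dermal condensate and of vessels, rose from 0.874 to 25.2 CPM on 10× and from 0 to 60.1 on Smart-seq2, in 7 of 278 and 8 of 62 cells (adjusted p = 3.46e-14).

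Of the 27 leading genes of E14.5, 0 passed the stage test in edgeR and 1 by DESeq2. They were chosen for high counts at E14.5, which this test also uses. It cannot tell a stage difference of these genes from the effect of that choice. Over all genes tested 0.721% passed in edgeR, so a list of this size would hold few calls or none at that share. An unadjusted p under 0.05 was reached by 6 of the 27, beside 787 of 12898 genes. Their median log2 difference in the fit was 0.03 beside -0.04 over all genes tested. By platform, with 10 CPM added, it was -0.22 on 10× and -0.37 on Smart-seq2, beside -0.12 and -0.15 over all genes tested. On both platforms 4 of the 27 were higher at E16.5 and 11 lower, beside 1540 and 4856 of 12898 genes. *Crabp1* was at 1317 CPM on 10× and 1730 on Smart-seq2 at E16.5, against 3627 and 2775 at E14.5 (-0.82 ± 0.52, adjusted p = 1). With 10× cells thinned to 1000 UMIs, *Crabp1* was counted in 69.6% of 194 members at E14.5 and 64% of 250 cells at E16.5, 28 shallower cells being left out. *Lef1* was at 73 and 199 CPM against 89.2 and 210. *Cyp26b1*, counted in 13 of 41 Smart-seq2 cells at E14.5, was counted in 58 of 62 at E16.5, at 88.7 CPM against 38.9 (adjusted p = 0.101). Of 25 feedback genes 23 could be tested and 2 passed, both lower, with 6 at an unadjusted p under 0.05 and 1 by DESeq2. Of 24 G2/M genes, 0 passed in edgeR, 0 at an unadjusted p under 0.05 and 0 by DESeq2. Markers of other cells also differed between the stages. The cartilage list went from 348 to 32.7 CPM on 10× and from 40.8 to 22.8 on Smart-seq2, the erythroid list from 119 to 2.52 and from 4.41 to 0.333, and *Col2a1*, *Acan*, *Hba-a2* and *Hbb-bt* were among the genes that fell. The 8 adipocyte markers went the other way, from 47.2 to 108 CPM on 10× and from 44.8 to 99.3 on Smart-seq2, with 0 of 6 tested called. The 17 dissociation stress genes went from 7118 to 8025 CPM on 10× and from 9711 to 18565 on Smart-seq2. The part of these lists in the other calls was not tested.

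**Figure D4:**
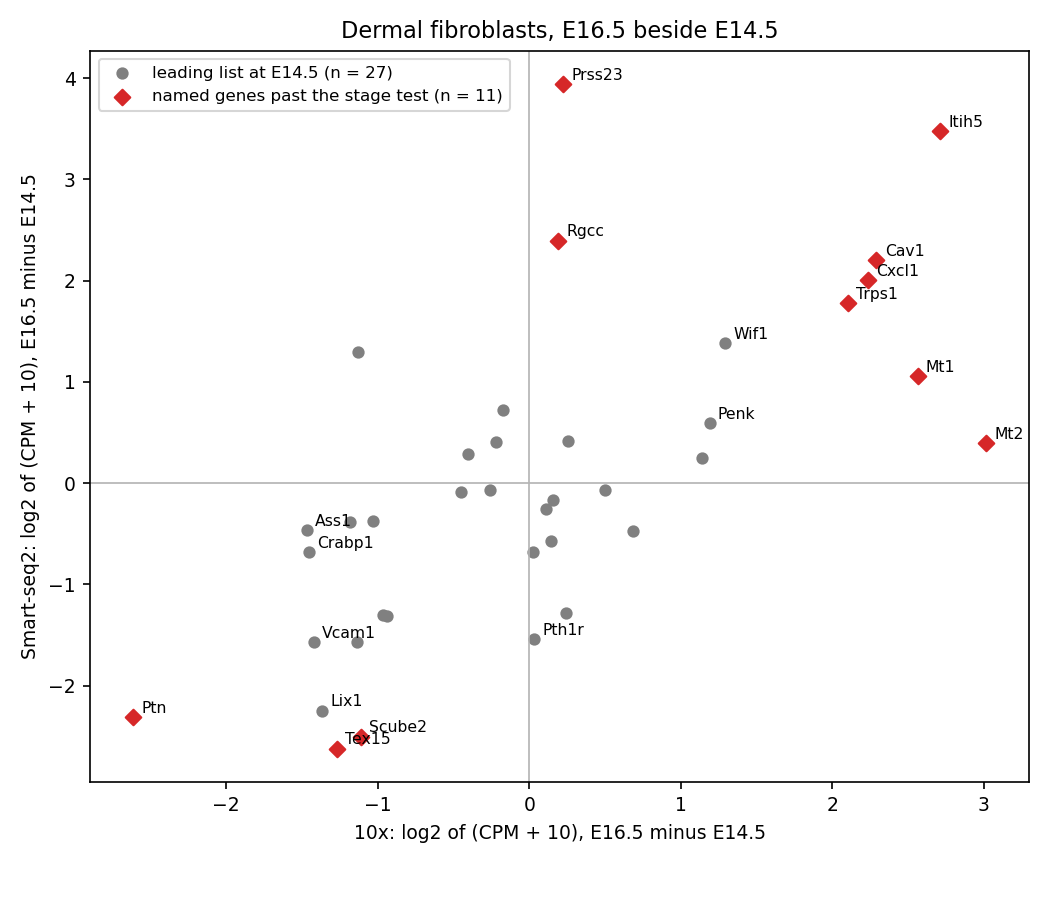
Log2 of (CPM + 10) at E16.5 minus E14.5 in dermal fibroblasts, 10× on the x axis and Smart-seq2 on the y axis; grey circles are the 27 leading genes of E14.5 and red diamonds the named genes past the stage test. *Itih5* lies at 2.71 and 3.48, *Prss23* at 0.22 and 3.94, and *Ptn* at -2.61 and -2.31.

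Whether this stage difference was particular to dermal fibroblasts was tested against that of the late progenitor cells, in 8 sums with platform and stage as a block. By the same edgeR test and adjustment, 331 of 14168 genes (2.34%) differed, 60 with the more positive difference in dermal fibroblasts (0.423%) and 271 with the more negative (1.91%), and 1489 had an unadjusted p under 0.05. Matrix genes made up part of the second set, with 12 of 51 called, all more negative in dermal fibroblasts, and a median of -0.66 beside -0.03 over all genes tested. *Eln*, the elastin gene, was at 105 and 114 CPM at E14.5 and 108 and 68.5 at E16.5 in dermal fibroblasts, while late progenitor cells went from 108 and 115 to 493.2 and 228 (-1.89, adjusted p = 7.18e-06). *Vcan*, a large proteoglycan gene, went from 157 and 518 to 113 and 80.2 CPM in dermal fibroblasts and from 235 and 847 to 298 and 653 in late progenitor cells (-1.71, adjusted p = 7.46e-05). Of 9 reticular and hypodermal genes 5 were called, all more negative, among them *Dlk1*, which went from 3351 and 594 to 2574 and 87.2 CPM in dermal fibroblasts and from 6039 and 1832 to 9885 and 1053 in late progenitor cells (-1.52, adjusted p = 1.50e-06). Of 8 fascia genes 4 were called, all more negative. Both classes were set at each stage by which panel scored highest. On 10×, 83 of 194 dermal fibroblasts at E14.5 and 218 of 278 at E16.5 had no count of the late progenitor panel. Their median depths were 5556 and 1406.5 UMIs. The part of the rule in these calls was not tested. DESeq2 called 81 genes in place of 331, of them 3 of the matrix list, 0 of the reticular and hypodermal list and 0 of the fascia list. Without the E14.5 10× sums 1017 genes were called, without the E14.5 Smart-seq2 sums 57, and without the E16.5 Smart-seq2 sums 0, with 504 at an unadjusted p under 0.05.

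Of the 27 leading genes, 7 were called, 6 more negative and 1 more positive, and 2 by DESeq2, beside 2.34% of all genes called by edgeR. These genes were chosen for high counts in dermal fibroblasts at E14.5, and the test uses the same counts. It cannot tell a stage difference of these genes from the effect of that choice. *Crip1* was at 1528 and 352 CPM at E14.5 and 1692 and 234 at E16.5 in dermal fibroblasts, while late progenitor cells went from 292 and 39.8 to 1197 and 154 (-2.20, adjusted p = 2.84e-11). *Sfrp5* went from 83.9 and 253 to 32.7 and 78.5 CPM in dermal fibroblasts and from 1.13 and 2.63 to 0 and 0.0683 in late progenitor cells, where both 10× sums are under 3 counts (3.47, adjusted p = 3.31e-04). *Itih5* and *Trps1*, both higher at E16.5 in dermal fibroblasts, also differed from late progenitor cells, by 1.99 and 2.57 (adjusted p = 2.18e-06 and 8.57e-06). *Cav1* and *Cxcl1*, which also rose, did not pass this test (-0.56 and 0.48, adjusted p = 0.760 and 0.803). *Ptn* fell further than in late progenitor cells, which went from 3481 and 1538 to 1379 and 1101 CPM (-2.04, adjusted p = 4.71e-05).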

How the data were processed

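The authors deposited a table of UMI counts per gene for the 10× cells and a table of estimated counts per gene for the Smart-seq2 cells, in which transcript abundances from kallisto were summed to genes. The submitters' processing notes name Cell Ranger, STAR, Seurat, bcl2fastq, kallisto 0.44.0 and mm 10. By their methods the authors kept cells with YFP counts and a mitochondrial share of at most 8%, and dropped cells with few genes on Smart-seq2 or very many counts on 10×. No deposited cell was removed here, and 1 member on 10× exceeded 8%. Bulk samples were not analysed here, because the table's headers no longer separate the sorted Thy1 fractions.

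Cells were grouped by stage, platform, plate and sequencing batch from the labels and by marker panel from the counts. Members and gene lists were chosen with earlier results of these data known. For each class, platform and stage with at least 20 cells the counts of its cells were added up, giving 4 sums for the stage test, with platform as a covariate, and 8 for the comparison with late progenitor cells. Estimated counts were rounded to whole numbers first. Tests used the quasi-likelihood fit of edgeR 4.0.16 with TMM scaling and its filter on low counts (R 4.3.3), and DESeq2 1.42.0 as an alternative. The scripts were tested on simulated data. Log2 ratios were taken with 10 CPM added, and the genes of the panels were left out of the calls named. Named leading genes were the 12 with the largest smaller ratio of the 2 platforms among genes with at least 50 CPM in members, with 8 genes higher and 6 lower than in late progenitor cells chosen alike, and up to 8 per direction from the stage test with the same sign on both platforms. Other genes belong to fixed lists or to those the study names for dermal cells. Some genes that met these rules are not reported here. Intervals are exact (95%), and floors are 3 counts. Python 3.11.15, numpy 2.4.6, pandas 2.3.3, scipy 1.17.1, scanpy 1.11.5 (Scrublet) and matplotlib 3.10.9 were used. Alternatives were other scalings, filters, pseudocounts, panel definitions and thresholds, and leaving out each sum.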

Additional observations from a re-analysis of the deposited data

Results flagged for a closer look

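For 20 named genes the stage difference in dermal fibroblasts differed from that in late progenitor cells by the interaction test of edgeR (adjusted p under 0.05). Values are log2 stage difference in dermal fibroblasts minus that in late progenitor cells. Among the leading genes they were -1.33 for *Arhgdib* (adjusted p = 0.0318), 3.47 for *Sfrp5*, -2.20 for *Crip1*, -2.25 for *Ass1* and -1.72 for *Lix1*. Among the genes lower than in late progenitor cells they were -8.17 for *C1qtnf3*, 1.88 for *Tnmd*, 5.94 for *Chodl*, -4.10 for *Ebf2*, -1.83 for *Fibin* and -2.00 for *Thbs4*. *Cd34* had -1.20 (adjusted p = 0.0201). The leading genes and those lower than in late progenitor cells were chosen by E14.5 counts that the interaction test also uses. Their differences are therefore not independent of that choice. Over the alternatives *C1qtnf3* ran from -10.26 to -0.14, the latter without the E16.5 Smart-seq2 sums.

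Among the genes past the stage test they were 3.27 for *Prss23*, 1.99 for *Itih5*, 2.57 for *Trps1*, -1.51 for *Mt2*, -3.28 for *Mt1*, -2.04 for *Ptn*, -2.15 for *Tex15* and -2.11 for *Scube2*. *Mt1* and *Mt2* rose within dermal fibroblasts, and late progenitor cells went from 109 and 77.9 CPM to 839 and 465 on 10× and from 0.235 and 1.83 to 90.2 and 40.5 on Smart-seq2. Over the alternatives *Prss23* ran from 0.27 to 5.30, *Ptn* from -3.36 to -0.32, *Mt1* from -6.43 to -1.06, *Mt2* from -2.68 to -0.15 and *Tex15* from -4.53 to -0.80. For each of the 20 genes the highest adjusted p over the alternatives was above 0.05.

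At E12.5, a stage outside the tests, the same rule found 10 cells of 1017 on 10× and 8 of 314 on Smart-seq2, above the 3 cells taken as the limit of a count of 0. The 10 cells had a median of 1349 UMIs, under the 1406.5 of the E16.5 members, a depth at which 1 UMI of the panel gives a score of 0.755.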

How the results depend on the processing

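Leaving *Lum* out of the panel gave 198 members and 16.3% of the E14.5 cells on 10×, and leaving *Thy1* out gave 278 and 23.8%. Without sequencing batch 4, a choice made after seeing the data, the Smart-seq2 share was 20.4%. With a pseudocount of 50 CPM the leading genes numbered 6 in place of 27. The stage test called 55 genes by DESeq2 and 0 with the Smart-seq2 cells of E14.5 split by batch, and, with all classes sharing the spread, where all sums gave 70, and also chosen after seeing the data, 17 without the E14.5 Smart-seq2 sum and between 0 and 105 over the 4 sums left out in turn. The comparison with late progenitor cells called 81 genes by DESeq2, 181 with RLE scaling, 166 without batch 4, and between 0 and 1017 when 1 library or plate set was left out. Leaving out sums moved the difference from late progenitor cells between -2.47 and 5.25 for *Ass1*, -6.66 and 2.80 for *Ebf2*, -2.76 and 0.36 for *Fibin*, and -3.57 and 0.039 for *Thbs4*, the sign turning without the E16.5 Smart-seq2 sums. Over the named genes, which for the stage test are those chosen from it by rule, 88 of its alternative fits kept direction and side of the threshold. A further 66 kept only the direction. For the comparison with late progenitor cells 271 kept both, a number that includes genes not called to begin with. A further 73 kept the direction and lost the call, and 7 gained a call. The sign turned in 4 fits of called genes and in 15 of genes not called. The cause was not tested. Counts on 10× at E16.5 are shallow, where 3 counts are 7.55 CPM. No paired analysis was possible because the replicate numbers name single cells and tie no cell of one stage to a cell of another. The planned comparisons of bulk samples, with their alternatives, were not run.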
